A study of Mus musculus with 6 samples.

Results

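The Hox cluster genes are the homeobox transcription factor genes named Hoxa, Hoxb, Hoxc or Hoxd followed by a number. Every gene of the deposited table whose symbol had that form was taken, which gave 35 of 37761 genes: 11 of the HoxA cluster on chromosome 6, 9 of HoxB on chromosome 11, 6 of HoxC on chromosome 15 and 9 of HoxD on chromosome 2. The annotation GENCODE M21 lists 39 such genes, and Hoxb13, Hoxc11, Hoxc12 and Hoxc13 are not analysed here. RNA sequencing had been done on wild-type mice, with 3 libraries of the whole pancreas dissected at e15.5 and 3 libraries of islets freed from the pancreas of 12-week-old adults by collagenase. The labels name no strain, no transgene and no pooling, and they do not say whether each library had its own animal, so that p-values measure only the spread between these libraries. The groups differ in age, tissue and isolation together, and these cannot be told apart.

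Hox proteins bind DNA through a homeodomain, usually beside a cofactor of the PBX or MEIS families, and they give cells of the embryo their position along the head-to-tail axis. Within a cluster, genes with low paralog numbers lie at one end and are used from the hindbrain backwards, while those with high numbers lie at the other end and are used in the lumbar, sacral and tail regions, the distal limb and the hindgut. In the gut and its appendages Hox genes are best known from the mesenchyme around the epithelium, and retinoic acid made in mesoderm is a classical inducer of the genes with low numbers.

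Values are normalized counts, that is reads assigned to a gene divided by 1 size factor per library. Assigned reads ranged from 35059950 to 47346870 per library, so that 1 normalized count was about 1 read. Endocrine and mesenchyme markers fitted the tissue labels. By limma's test 7 of 7 endocrine hormone and granule genes (Ins1, Ins2 and others) were higher in the islets. Of the mesenchyme genes (Col1a1, Pdgfra and others) 10 of 10 were lower. Over all genes tested, 36.6% were called lower and 36.2% higher. Acinar markers, 3 of 6 higher and 2 lower, stood at 263, 527 and 206% of the embryonic mean in the islet libraries 1, 2 and 3. Duct markers, 3 of 5 higher and 1 lower, stood at 189, 172 and 175%. The islet libraries thus also held exocrine RNA, at uneven levels for the acinar markers. The Hox genes together summed to 2904, 2816 and 3034 normalized counts in the libraries of e15.5 pancreas 1, 2 and 3, against 139.5, 109.1 and 97.6 in the islet libraries 1, 2 and 3. The islet values are all far under the embryonic ones, and in this bulk RNA fewer Hox-expressing cells and less Hox RNA per cell cannot be told apart.

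At e15.5 the pancreas held RNA of all 4 clusters, mostly from genes with paralog numbers 1 to 8. The 23 genes numbered 1 to 8 had a median embryonic mean of 78.0 normalized counts, from 1.49 (Hoxd1) to 597 (Hoxa5). The 12 genes numbered 9 to 13 had a median of 4.84, from 1.64 (Hoxd12) to 27.0 (Hoxb9). Summed by cluster, HoxA gave 40.8% ± 1.02 (SD, n = 3) of Hox normalized counts in the embryonic libraries, HoxB 33.2% ± 1.2, HoxC 15.4% ± 0.567 and HoxD 10.6% ± 1.0. Paralogs 4 and 5 together, the block between the head-end and trunk genes, gave 48.9% ± 3.30 of the embryonic Hox total, and paralogs 9 to 13 gave 3.65% ± 2.12. Of the 35 genes, 25 had an embryonic mean of at least 10 normalized counts and 10 of at least 100.

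**Figure D1:**
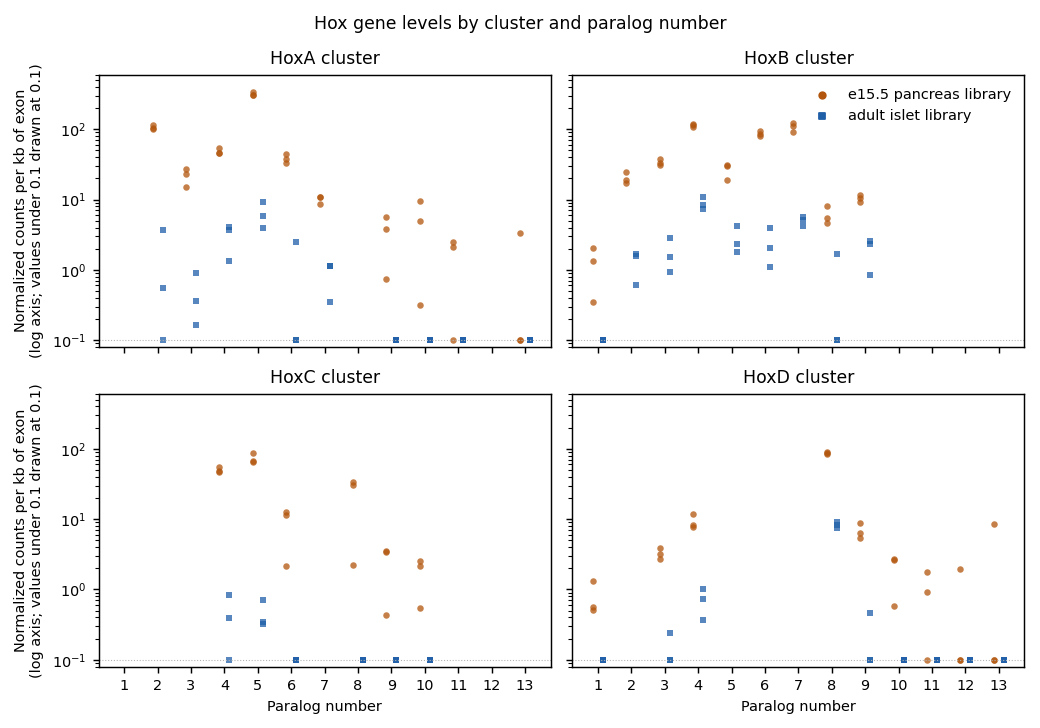
Normalized counts per kb of exon (log axis, values under 0.1 drawn at 0.1) for the Hox genes described, by paralog number and cluster; circles are the 3 e15.5 pancreas libraries and squares the 3 adult islet libraries. Hoxa5 stands highest, the embryonic points fall away above paralog 8, and islet points are under the embryonic ones or at the bottom line.

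Levels were compared between genes per kb of exon, on the union of all annotated exons. Hoxa5 stood first in the embryonic pancreas with 318 ± 20.4 normalized counts per kb (SD, n = 3), and its lowest library, 305, was above the highest of any other Hox gene, 124 for Hoxb7. Next came Hoxb4 with 115 ± 5.67, Hoxb7 with 108 ± 16.9 and Hoxa2 with 107 ± 8.29 per kb, whose ranges over libraries overlap one another. Hoxb6 with 87.4 ± 7.09, Hoxd8 with 86.7 ± 3.34 and Hoxc5 with 73.7 ± 12.2 per kb followed, also with overlapping ranges. Hoxc4 with 49.9 ± 4.48 and Hoxa4 with 48.9 ± 4.29 per kb were not separated either. The order is less sure for genes that share exon sequence with a neighbour: 16 of the 35 do, and the shared part exceeds 25% of exon length in 6, namely Hoxa3, Hoxa11, Hoxb2, Hoxb3, Hoxd3 and Hoxd4. With the shared part left out of the length, Hoxa2 moved to rank 2 and Hoxb3 from rank 12 to rank 8. The kit is not stated to keep strand, so over shared exons reads of antisense partners such as Hoxb3os may not be told apart by strand. Ambiguous reads form a separate entry of 2.38 to 4.07% of a library. Whether reads over shared exons went there, and so are missing from both genes, is not stated in the sources.

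Both groups were then compared, with islets set against embryonic pancreas. Each of the 35 genes had a lower mean in the islets. In 30 of them every embryonic library stood above every islet library, which holds for 29.2% of all genes in the table. The 5 genes with overlap were Hoxa11, Hoxa13, Hoxd11, Hoxd12 and Hoxd13, each with at least 1 embryonic library at 0. A minimum of 10 normalized counts in at least 3 libraries left 21 Hox genes for the limma test, and 14 were not tested. All 21 tested genes were called lower at an adjusted p under 0.05, against 36.6% of the 21653 genes tested. None was called higher, against 36.2% of genes tested; the count was also 0 at an unadjusted p under 0.05, by edgeR and by DESeq2. Since 19 of the 21 reached the minimum only through the embryonic libraries, and just Hoxb4 and Hoxd8 did so in all 6, these calls describe the genes that passed and are not support for the rest. The log2 fold changes, on the log2(value + 1) scale that understates low genes, ran from -6.58 for Hoxc5 to -2.35 for Hoxb9 with a median of -3.84, beside a median of -0.03 over all genes tested.

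Without the minimum, limma called 30 of the 35 lower, against 26.7% of all genes, and edgeR on recovered reads called 32, against 26.8%. The authors' deposited table gave 26 Hox genes lower at its adjusted p under 0.05, against 27.9% of the genes with such a value. There, in the authors' deposited table, another 7 Hox genes were not under that threshold and 2, Hoxd1 and Hoxd12, had no adjusted p.

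**Figure D2:**
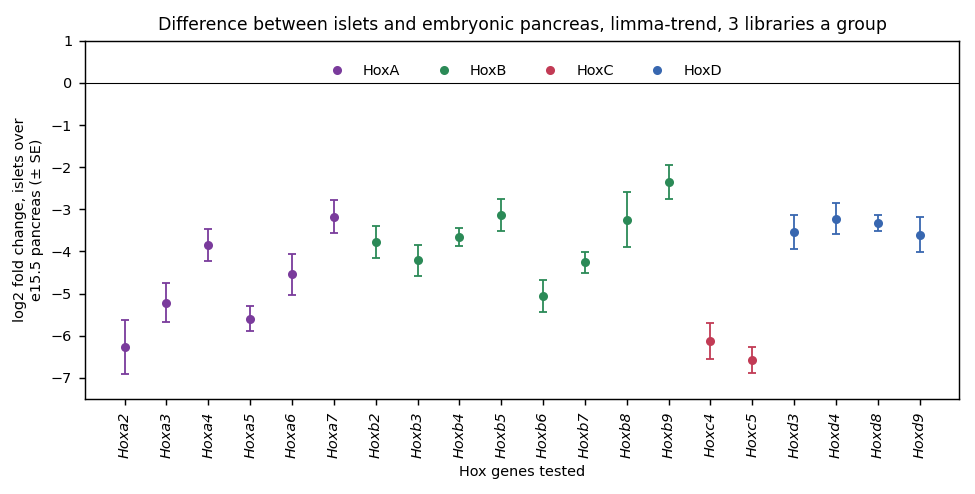
Log2 fold change of islets over e15.5 pancreas for Hox genes tested with limma and described, with points coloured by cluster and bars giving the standard error. All points lie under 0, with HoxC lowest at -6.58 and -6.13, HoxA from -6.27 to -3.18, HoxB from -5.07 to -2.35 and HoxD from -3.60 to -3.22.

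HoxA was led by Hoxa5, and Hoxa6, Hoxa7, Hoxa9 and Hoxa10 further along the cluster were also above an embryonic mean of 10. Hoxa5 (chr6:52201754-52204587, minus strand, GRCm38), which patterns the neck and upper chest and is needed for lung and trachea, had 577, 641 and 572 normalized counts in the embryonic libraries 1, 2 and 3 against 17.6, 10.9 and 7.51 in the islet libraries 1, 2 and 3. The groups are far apart, and the log2 fold change was -5.59 ± 0.29 (SE; limma adjusted p = 3.22e-07). Hoxa2, which sets the identity of the hyoid arch, had 178, 207 and 187 in the embryonic libraries against 6.59, 0.992 and 0 in the islets. Islet library 1 held 6 of its 7 islet reads, and the log2 fold change was -6.27 ± 0.64 (limma adjusted p = 2.51e-05). Hoxa3, needed for thymus and parathyroid, had 139, 89.7 and 164 against 5.49, 0.992 and 2.15. Embryonic library 2 was its lowest but still far above the islets, with a log2 fold change of -5.22 ± 0.46 (limma adjusted p = 9.62e-06). Hoxa7, a trunk gene, had 24.97, 31.3 and 31.1 against 3.30, 0.992 and 3.22, the smallest HoxA change at -3.18 ± 0.39 (limma adjusted p = 8.00e-05).

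Hoxa4 had 74.0 to 85.9 in the embryonic libraries and 2.15 to 6.59 in the islets, and Hoxa6 had 28.8 to 38.6 and 0 to 2.20. Both fell, with log2 fold changes of -3.84 and -4.55. Hoxa9, Hoxa10, Hoxa11 and Hoxa13 had no islet read in any library.

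HoxB genes 2 to 9 were all present in the embryo, and each kept some reads in the islets. Hoxb4 (chr11:96318267-96321638, plus strand), known for expanding blood stem cells when forced on, had 307, 279 and 297 normalized counts in the embryonic libraries against 18.7, 27.8 and 21.5 in the islets. Every islet library held at least 17 of its reads, and the log2 fold change was -3.66 ± 0.22 (limma adjusted p = 6.99e-07). Hoxb7 had 169, 191 and 139 against 6.59, 7.93 and 8.58, with even islet values and a log2 fold change of -4.26 ± 0.26 (limma adjusted p = 8.10e-07). Hoxb6 had 186, 170 and 159 against 7.69, 3.97 and 2.15. It changed most in the cluster, by -5.07 ± 0.38 on the log2 scale (limma adjusted p = 3.31e-06).

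Hoxb3, active from the hindbrain backwards, had 133, 141 and 160 against 12.1, 3.97 and 6.44, and 52.9% of its exon length is shared with the antisense gene Hoxb3os. Its log2 fold change was -4.21 ± 0.37 (limma adjusted p = 8.90e-06). Hoxb5, a gene of foregut mesenchyme and of the nerve cells that colonise the gut, had 83.6, 52.2 and 85.9 against 6.59, 4.96 and 11.8. Hoxb9, the only HoxB gene of the table above paralog 8, had 26.9, 24.0 and 30.3 against 6.59, 5.95 and 2.15. Its islet reads numbered 14, and it had the smallest change of all tested Hox genes, -2.35 ± 0.40 (limma adjusted p = 0.000657). Hoxb2 and Hoxb8 also fell, with log2 fold changes of -3.77 and -3.24, the latter with 4 islet reads, all in islet library 1. Hoxb1, a hindbrain gene, had 4.80, 3.13 and 0.818 in the embryonic libraries and no islet read, which makes it at least 2.77-fold lower when the embryonic mean as measured is set against 3 reads over the islet group, the limit of a count of 0. The exact counting interval of that ratio starts at 1.75.

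HoxC showed the lowest islet level of the 4 clusters. Hoxc5 (chr15:102967443-103017429, plus strand), a neck and upper trunk gene, had 203, 271 and 209 normalized counts in the embryonic libraries against 2.20, 0.992 and 1.07 in the islets. These islet values stand for 4 reads in all, and the log2 fold change of -6.58 ± 0.31 was the steepest of any tested Hox gene (limma adjusted p = 1.85e-07). Hoxc4, its neighbour, had 125, 141 and 119 against 0, 0.992 and 2.15. With 3 islet reads its ratio of 121 has a counting interval of 41.1 to 589, and the log2 fold change was -6.13 ± 0.43 (limma adjusted p = 2.16e-06). Hoxc6, Hoxc8, Hoxc9 and Hoxc10 had no islet read; Hoxc8, which patterns the lower chest and forelimb motor neurons, is then at least 59.5-fold lower in the islets and Hoxc6 at least 20.2-fold lower. These bounds set the embryonic mean as measured against the limit of 3 reads. The exact counting intervals of the ratios, which take in the counting error of both groups with reads pooled over libraries, start at 50.2 and 16.6. Neither covers the spread between embryonic libraries. Hoxc8 had 94.1, 6.26 and 87.5 normalized counts in the embryonic libraries 1, 2 and 3, and Hoxc6 had 30.7, 5.22 and 27.8, so library 2 alone would give far smaller bounds.

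HoxD had the fewest embryonic reads, and Hoxd8 held most of what was left of it. Hoxd8 (chr2:74704615-74707933, plus strand), a trunk gene, had 229, 238 and 247 normalized counts in the embryonic libraries against 25.3, 20.8 and 22.5 in the islets. Both groups are tight, and the log2 fold change was -3.33 ± 0.20 (limma adjusted p = 7.39e-07). Hoxd4 had 23.1, 24.0 and 34.3 against 1.10, 2.97 and 2.15, a log2 fold change of -3.22 ± 0.37 (limma adjusted p = 5.01e-05). Of its exon length 52.3% is shared, with Hoxd3, Hoxd3os1 and Gm28230. Hoxd9 had 13.4, 11.5 and 18.8 against 0, 0.992 and 0, a single islet read, with a log2 fold change of -3.60 ± 0.41 (limma adjusted p = 5.17e-05). Hoxd3 likewise had 1 islet read and fell by 3.54 on the log2 scale. Hoxd1, Hoxd10, Hoxd11, Hoxd12 and Hoxd13 had none.

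What was left in islets differed by cluster. As a percentage of the embryonic mean, the HoxC sum stood at 0.489, 0.442 and 0.717% in the islet libraries 1, 2 and 3. The HoxA sum stood at 3.6, 1.75 and 1.26%, the HoxB sum at 7.04, 6.25 and 5.65%, and the HoxD sum at 8.48, 8.29 and 7.94%. These ranges do not overlap, but the place of HoxD rests on Hoxd8: without it 3.75% of HoxD was left (1.505, 6.79 and 2.94% in the islet libraries), against 5.71% of HoxB without its own highest gene, Hoxb4. The median over tested genes was likewise higher in HoxB, 7.03%, than in HoxD, 5.02%, with 2.18% in HoxA and 0.720% in HoxC. By paralog number the sums left were 2.86% for 1 to 3, 3.64% for 4 and 5, 5.40% for 6 to 8 and 4.83% for 9 to 13, the last of these from 15 reads. Over the islet libraries they ranged from 1.66 to 4.76%, 3.39 to 3.83%, 4.57 to 6.69% and 1.99 to 6.42%. The ranges of 1 to 3 and of 9 to 13 overlap all others. Those of 4 and 5 and of 6 to 8 do not overlap each other. In the islets HoxB made up 53.4% ± 4.01 (SD, n = 3) of the Hox total, HoxD 22.6% ± 3.31, HoxA 21.7% ± 8.00 and HoxC 2.23% ± 0.932.

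Few genes carry this remainder. Hoxd8 and Hoxb4 with 65 reads each and Hoxa5 with 34 made up 44.1% of Hox reads in islet library 1 (exact 95% interval 35.3 to 53.2%), 54.5% in library 2 (44.8 to 64.1%) and 52.7% in library 3 (42.0 to 63.3%). The same genes made up 38.3, 41.1 and 36.8% in the embryonic libraries. The interval of islet library 1 takes in these embryonic shares, while those of islet libraries 2 and 3 do not. The genes were picked for their islet reads, so a high islet share is partly set by that choice, and the intervals do not allow for it. Per kb of exon, Hoxb4 with 8.82 ± 1.82 and Hoxd8 with 8.34 ± 0.816 led the islets, with Hoxa5 at 6.39 ± 2.73, and these are within each other's spread. Reads were found in all 3 islet libraries for 14 genes and in none for another 14. Those with none were 10 of the 12 genes numbered 9 to 13 and 4 of the 23 numbered 1 to 8, namely Hoxb1, Hoxc6, Hoxc8 and Hoxd1. A count of 0 over the group allows up to 1.05 normalized counts. Intervals and limits cover counting error only, since the reads carry no molecular identifiers.

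Markers of other cells in the islet preparation stood as follows. The summed mesenchyme markers, of which 10 of 10 fell and none was at 0, ranged from 174920 to 201106 in the embryonic libraries and stood at 1.83, 1.21 and 0.925% of the embryonic mean in the islet libraries 1, 2 and 3. Smooth muscle markers, a list added after the values were seen, stood at 6.79, 6.29 and 5.05%, with 7 of 8 lower, and endothelium markers stood at 75.8, 72.5 and 56.8%, with 3 of 5 lower. Limma called 36.6% of all genes tested lower. Single smooth muscle markers kept from 0.145 to 46.1% and single endothelium markers from 16.3 to 82.5%. On average 1.32% of the summed mesenchyme markers was left, between HoxC with 0.549% and HoxA with 2.20%. The most abundant genes weigh most in that sum. Single mesenchyme markers kept from 0.515% (Col3a1) to 16.5% (Pdgfrb), with a median of 1.81%, a span that takes in the mean left of every Hox cluster. The range of the summed smooth muscle markers over the islet libraries overlapped that of HoxB. Islet library 1 was the highest in HoxA, HoxB, HoxD, mesenchyme, smooth muscle and endothelium, and library 3 in HoxC. The part of these cells in the Hox values was not tested.

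**Figure D3:**
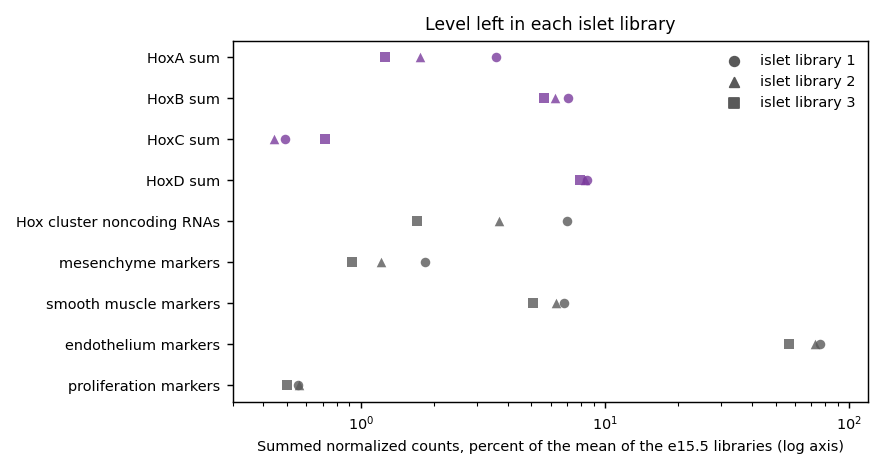
Summed normalized counts in each islet library as a percentage of the mean of the e15.5 libraries (log axis), for the 4 Hox clusters and for lists of noncoding RNAs and cell markers; symbols tell the islet libraries apart. HoxC lies near 0.5%, HoxA between 1.26 and 3.6%, HoxB and HoxD between 5.65 and 8.48%, and endothelium markers above 50%.

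Some Hox genes numbered 6 to 11 differed between the embryonic libraries, while most others were nearer to each other. Hoxc8 had 94.1 normalized counts in library 1, 6.26 in library 2 and 87.5 in library 3. Hoxc6 had 30.7, 5.22 and 27.8, Hoxa9 had 21.1, 4.17 and 31.1, and Hoxa10 had 16.3, 1.04 and 31.1. In all, 9 of the 31 Hox genes with an embryonic mean of at least 3 had in library 2 no more than 1 part in 3 of the lower of libraries 1 and 3, against 3.18% of genes of that level in the table. They were Hoxa9, Hoxa10, Hoxa11, Hoxc6, Hoxc8, Hoxc9, Hoxc10, Hoxd10 and Hoxd11, and no Hox gene stood low in that way in library 1 or in library 3. This pattern was chosen after the values were seen, and it has no test. Hoxc4 and Hoxc5 were highest in that same library, and Hoxd8, Hoxd9 and every tested HoxB gene were within a factor of 2 between embryonic libraries.

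Hoxd13, Hoxa13 and Hoxd12, used in the digits, the genital tubercle and the end of the gut, were read in embryonic library 3 alone. Hoxd13 had 26 reads there (21.3 normalized counts, exact 95% counting interval 13.9 to 31.2), Hoxa13 had 10 and Hoxd12 had 6, against 0 in the other 5 libraries. Across all genes, 1003 (2.66%) had reads in that library alone, and 34 of them, 0.0900%, had at least 5 there, a minimum set after the values were seen. Library 3 also lists 0 reads of too low quality, against 1394701 in library 1 and 1264897 in library 2; the part of this in the values was not tested. Paralogs 9 to 13 made up 3.61% of Hox reads in embryonic library 1 (exact 95% interval 2.97 to 4.33%), 1.56% in library 2 (1.12 to 2.10%) and 5.80% in library 3 (5.06 to 6.60%). These intervals cover the counting of reads and not the spread between samples, and the span of numbers was looked at after the values were seen.

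Other measures differed between the same libraries. Reads in no annotated feature made up 18.6, 11.2 and 20.04% in the embryonic libraries 1, 2 and 3, and genes with a read numbered 31647, 30721 and 32394. The spleen gene Tlx1 had 60.5, 219 and 99.8 normalized counts and the spleen and heart gene Nkx2-5 had 8.64, 57.4 and 13.1, both highest in library 2. Of the other 5 markers on that list, Barx1, Nkx3-2 and Isl1 were also highest there, Foxf1 was highest in library 3 and Tcf21 was lowest in library 2. The smooth muscle gene Actg2 had 361, 115 and 282, and the sympathetic neuron gene Dbh had 16.3, 5.22 and 101. In lists added after the values were seen, Cnn1 and Myocd of 8 smooth muscle genes and Dbh and Hand1 of 8 sympathetic neuron genes were low in library 2 by the same measure. None of the 11 kidney genes, 9 gonad and adrenal genes or 5 limb genes was, nor any of the 10 mesenchyme markers. The part of tissue taken with the pancreas in the Hox values was not tested. Without embryonic library 2, groups did not overlap for 32 of the 35 Hox genes (35.1% of all genes), and without library 3 for 30 (32.2%).

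**Figure D4:**
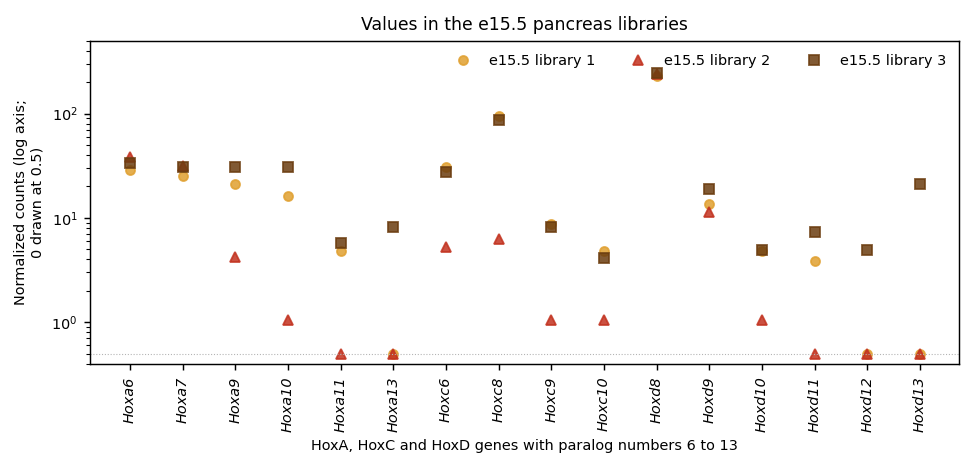
Normalized counts (log axis, 0 drawn at 0.5) of HoxA, HoxC and HoxD genes numbered 6 to 13 in the 3 e15.5 pancreas libraries. Library 2 (triangles) drops away for Hoxa9 to Hoxa11, for Hoxc6 to Hoxc10 and for Hoxd10 and Hoxd11, and Hoxa13, Hoxd12 and Hoxd13 lie above the bottom line only in library 3 (squares).

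Noncoding RNAs within the clusters were lower in the islets where they could be tested. Of 13 measured, 6 were tested, and all 6 were called lower by limma, against 36.6% of all genes tested. Their median log2 fold change was -4.72. As with the Hox genes, they reached the minimum through the embryonic libraries. Hoxaas2, antisense to Hoxa3, had 102, 76.2 and 116 normalized counts in the embryonic libraries against 3.30, 0.992 and 0 in the islets. Its log2 fold change was -5.58 ± 0.51 (limma adjusted p = 1.25e-05). Hoxb5os had 47.1, 61.6 and 54.8 against 1.10, 0 and 0, a log2 fold change of -5.43 ± 0.39 (limma adjusted p = 2.53e-06). Hotairm1, Hoxaas3, Hoxb3os and Hoxd3os1 also fell. Hoxb3os shares 76.2% of its exon length with Hoxb2 and Hoxb3, while Hotairm1 shares 43.1% and Hoxaas3 30.7% with neighbouring genes. As the kit is not stated to keep strand, reads over the shared parts may not be told apart from those of the neighbours. Reads at Mir10a, the microRNA gene upstream of Hoxb4, were few: 4.80, 13.6 and 3.27 normalized counts against 1.10, 0 and 1.07, and Mir10b next to Hoxd4 had 1 read in each group. Such reads come from precursor RNA of this library type and do not measure the mature microRNA. The mature sequences are shown because genes of different Hox clusters carry the same seed, given in capitals (bases 2 to 8) (RefSeq, GRCm38.p6).
miR-10a-5p: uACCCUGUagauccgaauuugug
miR-10b-5p: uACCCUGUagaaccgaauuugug
miR-196a-5p: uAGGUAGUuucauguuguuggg
miR-196b-5p: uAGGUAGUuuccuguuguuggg
miR-10a-5p (chr11:96317186-96317208, plus strand, HoxB) and miR-10b-5p (chr2:74726074-74726096, plus strand, HoxD) share the seed ACCCUGU and differ only by U12A, counted from 1 at the 5′ end of miR-10a-5p. The miR-196 forms, from HoxA (chr6:52230129-52230150, minus strand), HoxB (chr11:96265187-96265208, plus strand) and HoxC (chr15:102973365-102973386, plus strand), share the seed AGGUAGU.

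Genes flanking the clusters changed in both directions. Of 21 flanking genes tested, limma called 5 lower and 13 higher, with a median log2 fold change of 0.40. Limma called 36.6% of all genes tested lower and 36.2% higher. Scaling that left out the 20 most abundant genes per group made the flanking counts 7 lower and 10 higher. Skap1, a T-cell adaptor gene 96.3 kb beyond Hoxb1, had 21.1, 36.5 and 22.1 normalized counts in the embryonic libraries against 1565, 1664 and 2046 in the islets, a log2 fold change of 6.03 ± 0.23 (limma adjusted p = 5.39e-08). Nfe2l1, a stress-response transcription factor gene 449 kb beyond Hoxb1, rose by 2.47 ± 0.08 (limma adjusted p = 3.03e-08). Nfe2, a gene of red cell and platelet precursors 211 kb beyond Hoxc4, fell by 3.02 on the log2 scale (limma adjusted p = 3.41e-05). Its islet values were 11.0, 7.93 and 5.36, so that it passed the minimum through the embryonic libraries. Next to HoxD, Lnpk had a log2 fold change of 0.21 and Mtx2 was not called at -0.26 (limma adjusted p = 0.0671).

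**Figure D5:**
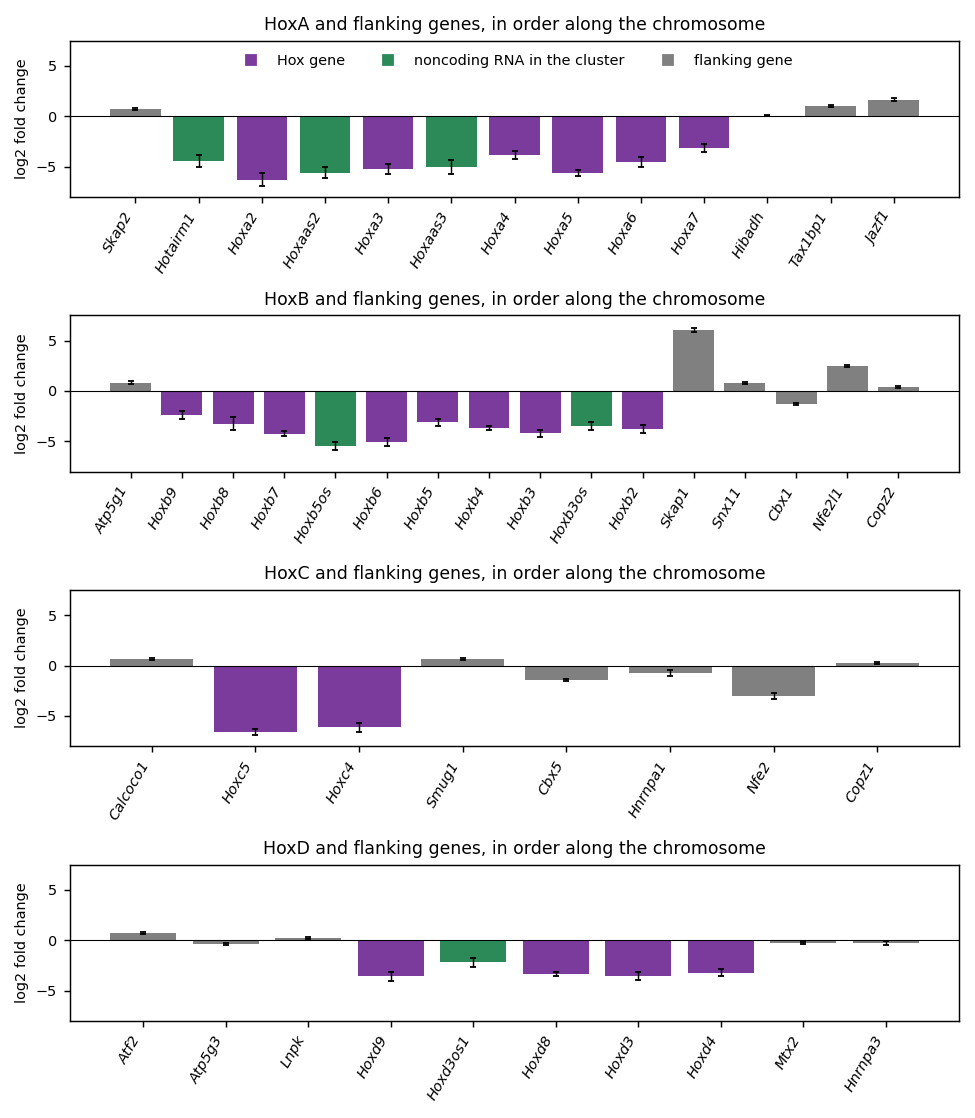
Log2 fold change (islets over e15.5 pancreas, bars with standard error) of tested Hox genes described, noncoding RNAs of the clusters and flanking genes, in order along each chromosome and not to scale. Hox genes and cluster noncoding RNAs lie between -6.58 and -2.21, while flanking genes lie between -3.02 (Nfe2) and 6.03 (Skap1).

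The cofactors of Hox proteins split between both directions. Of 9 PBX, MEIS and PKNOX genes, which bind DNA together with Hox proteins, limma called 4 lower, 1 higher and 4 not called. Their median log2 fold change was -0.17, and over all genes tested limma called 36.6% lower and 36.2% higher. Quantile normalization called 6 lower and 2 higher, and scaling without the 20 most abundant genes 7 and 1. Meis1 had 6390, 6502 and 6879 normalized counts in the embryonic libraries against 1107, 1100 and 1199 in the islets, a log2 fold change of -2.54 ± 0.08 (limma adjusted p = 2.20e-08). Pknox2 had 186, 140 and 215 against 19.8, 16.9 and 18.2, a log2 fold change of -3.21 ± 0.24 (limma adjusted p = 3.43e-06). Meis3 had 301, 428 and 373 against 1502, 1524 and 1589 and rose by 2.08 ± 0.13 (limma adjusted p = 1.18e-06). The summed cofactors stood at 61.4% of the embryonic mean and all Hox genes at 3.96%.

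Retinoic acid genes were mostly lower in islets. Of 16 tested, 13 were called lower by limma and 1 higher, with a median log2 fold change of -2.97. The shares over all genes tested were 36.6% lower and 36.2% higher. Crabp1, Crabp2, Rarb, Rxrg and Stra6 reached the minimum only through the embryonic libraries, so that their calls are not support for the rest. Crabp1, which binds retinoic acid in the cytoplasm, had 295, 364 and 256 normalized counts in the embryonic libraries against 3.30, 0 and 0 in the islets, a log2 fold change of -7.54 ± 0.55 (limma adjusted p = 2.85e-06). The receptor gene Rxrg had 152, 216 and 148 against 3.30, 0 and 3.22, a log2 fold change of -6.02 ± 0.56 (limma adjusted p = 1.26e-05). The synthesis gene Aldh1a3 had 111, 79.3 and 94.9 against 265, 166 and 123 and was the 1 called higher, at 0.89 ± 0.28 (limma adjusted p = 0.0196). That call was lost without embryonic library 2 (0.77), without islet library 1 (0.60) and when the 20 most abundant genes were left out of the scaling (0.66).

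Regulators of Hox chromatin split in both directions. Trithorax proteins keep Hox genes open and polycomb proteins keep them shut. Of 20 such genes 9 were called lower, 9 higher and 2 not called by limma, with a median log2 fold change of 0.05. All genes tested also split, with 36.6% called lower and 36.2% higher. Scaling without the 20 most abundant genes gave 10 lower and 5 higher of the 20, and quantile normalization 10 and 6. Ezh2, the polycomb methyltransferase of dividing cells, had 3349, 3078 and 3242 normalized counts in the embryonic libraries against 266, 303 and 279 in the islets, a log2 fold change of -3.51 ± 0.09 (limma adjusted p = 1.20e-08). Cbx2, a polycomb reader of the histone mark that EZH2 sets, changed by -2.90 ± 0.13 (limma adjusted p = 1.36e-07). Cbx7, another such reader, had 109, 169 and 126 against 1821, 2025 and 2228 and rose by 3.92 ± 0.17 (limma adjusted p = 1.13e-07). Proliferation markers, 5 of 5 lower, stood at 0.538% of the embryonic mean in the islets, and their part in the change of Ezh2 was not tested.

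Of 7 relatives of the Hox genes outside the 4 clusters, only Pdx1 and Cdx4 could be tested. Limma called both higher, against 36.2% of all genes tested. Pdx1, the ParaHox gene needed for pancreas and beta cells, had 1328, 1843 and 1471 normalized counts in the embryonic libraries against 3968, 3639 and 4188 in the islets, a log2 fold change of 1.36 ± 0.13 (limma adjusted p = 1.27e-05). Cdx4, which acts upstream of Hox genes in the tail of the embryo, had no read in the embryonic libraries and 15.4, 29.7 and 23.6 normalized counts in the islets. With the islet mean as measured set against 3 reads over the embryonic group, it is at least 24.6-fold higher in islets. Cdx4 reached the minimum only through the islet libraries, so its call (limma adjusted p = 5.06e-06) is not support for the rest. Cdx1, Cdx2, Gsx1, Evx1 and Evx2 were under the minimum and were not tested. Without the minimum, limma called 1 of the 7 lower and 2 higher, against 10098 lower and 8635 higher of 37761 genes.

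RefSeq promoter windows (GRCm38.p6), from 250 bases before to 50 after a start, were found for 22 of the 35 genes, 24 windows in all. They held a median of 14.5 CpG sites, from 4 to 45, beside a median of 7 over 32851 windows of all genes, whose 10th and 90th percentiles are 1 and 31. The 15 windows of Hox genes with an embryonic mean of at least 10 normalized counts had a median of 13 CpG sites and the 9 windows of the others 22. The motifs were searched on both strands: the core site of retinoic acid and related receptors AGGTCA, the TATA box TATAAA and the HOX-PBX site TGATNNAT. AGGTCA was in 7 of the 24 Hox windows and in 16.3% of all windows, TATAAA in 4 and 13.6%, and TGATNNAT in 4 and 8.85%; a match is a run of letters and not a measured binding site. The 250 bases before the start are shown for the genes with most islet reads, Hoxb4, Hoxd8 and Hoxa5, and for Hoxd13, read in a single library, with matches in capitals.
Hoxb4: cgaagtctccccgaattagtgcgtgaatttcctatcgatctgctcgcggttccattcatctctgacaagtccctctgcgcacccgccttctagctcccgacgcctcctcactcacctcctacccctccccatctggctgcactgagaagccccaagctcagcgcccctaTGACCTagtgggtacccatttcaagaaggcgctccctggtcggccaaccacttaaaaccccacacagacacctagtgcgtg
Hoxd8: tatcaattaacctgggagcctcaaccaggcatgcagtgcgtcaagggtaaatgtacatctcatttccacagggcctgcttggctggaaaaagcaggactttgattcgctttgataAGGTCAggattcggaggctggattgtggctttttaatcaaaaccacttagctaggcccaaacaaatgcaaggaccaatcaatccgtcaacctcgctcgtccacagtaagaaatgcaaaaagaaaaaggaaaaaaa
Hoxa5: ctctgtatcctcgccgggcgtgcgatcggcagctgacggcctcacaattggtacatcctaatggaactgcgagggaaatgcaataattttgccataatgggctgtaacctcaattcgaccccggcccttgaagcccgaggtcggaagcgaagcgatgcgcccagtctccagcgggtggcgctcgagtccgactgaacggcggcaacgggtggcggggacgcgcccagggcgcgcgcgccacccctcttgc
Hoxd13: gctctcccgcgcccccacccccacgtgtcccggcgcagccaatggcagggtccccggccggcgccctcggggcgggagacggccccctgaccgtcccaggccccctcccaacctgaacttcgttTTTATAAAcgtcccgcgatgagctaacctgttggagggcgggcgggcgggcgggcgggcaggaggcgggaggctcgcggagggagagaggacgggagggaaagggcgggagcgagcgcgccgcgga
These lie at chr11:96318017-96318266 (plus strand), chr2:74704365-74704614 (plus), chr6:52204588-52204837 (minus) and chr2:74667975-74668224 (plus). The capitals are AGGTCA at Hoxd8, its reverse complement at Hoxb4, and TATAAA overlapping its own reverse complement at Hoxd13. The match of Hoxa5 lies in the 50 bases after the start and is not printed. The Hoxd13 window holds 37 CpG sites and that of Hoxa5 29, against 14 for Hoxb4 and 6 for Hoxd8, so that the genes with most islet reads differed widely in CpG number.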

How the data were processed

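Libraries were made from total RNA with a TruSeq kit, per the labels' protocols. TopHat 1.3.2 and Cufflinks 1.2.1, beside CASAVA 1.8.2 and DESeq2, were used with build mm10, per the submitters' processing notes, while the program that counted reads and its gene models are not given in the sources. Per the file headers, the deposited table holds a normalized signal per gene and library, and the authors' log2 fold change with its error, p-value, test score and adjusted p-value; only the log2 fold change and adjusted p were used. The 5 entries of unassigned reads, 40.7 to 54.6% of a library, were left out. In every library all values were whole multiples of its smallest value within 0.01 reads, so reads could be recovered by division; for islet library 2 the step, 0.992, is too near 1 to tell this from rounding by itself.

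limma-trend 3.58.1 (R 4.3.3) was run on log2(value + 1) for 21653 genes that reached 10 normalized counts in 3 or more libraries, with Benjamini-Hochberg adjustment and a threshold of 0.05, 4 residual degrees of freedom and no covariate. Normalized values call for a test on the log scale, so count models (edgeR 4.0.16, DESeq2 1.42.0) on recovered reads are alternatives. The fit was tested on simulated data. Counting intervals are exact at 95%. Exon lengths are GENCODE M21 on GRCm38 (the same build as mm10), counted from 1; sequences are RefSeq GRCm38.p6. Python 3.11.15 and pandas 2.3.3 handled tables.

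The values of 1 Hox gene are not reported here, though counts and sums over the Hox genes include it. The members and lists were chosen with earlier results of these data known. Values in every library are given for Hox genes with a mean of at least 100 in a group, for the 5 highest in islets and for the steepest and shallowest of each cluster; of each other list the text names the 2 steepest calls in the more frequent direction and the steepest 1 against it. Hox genes and others named beyond that rule were chosen after their values were seen.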

Additional observations from a re-analysis of the deposited data

How the results depend on the processing

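For the 21 Hox genes tested, all 371 values under the alternatives run kept direction and call, with log2 fold changes from -7.72 to -1.72; 14 of them were left to test at a minimum of 50 normalized counts. Without any filter, edgeR called 32 Hox genes lower, more than the 21 because 35 were tested; this setting, the smooth muscle, sympathetic, kidney, gonad and limb lists the counts of overlap without embryonic library 2 or 3 and the cluster sums without 1 gene were chosen after seeing the data. Leaving out each library in turn gave 21 lower and 0 higher every time. Calls over all genes numbered 15770, and 10412 when at least 2-fold was also asked; leaving out libraries gave 14552 to 16460. Cofactor calls went from 5 to 8 under quantile normalization and to 8 under scaling without the 20 most abundant genes, which moved the all-gene median from -0.03 to -0.26 (log2). Calls of flanking genes went from 18 to 7, and of trithorax and polycomb genes from 18 to 5, with at least 2-fold asked. A minimum of 50 left 2 calls of 6 for cluster noncoding RNAs and 1 of 2 for ParaHox and Evx genes, because fewer genes were tested. The cause of the other changes was not tested. Leaving out a library gave 4 to 5 cofactor calls, 15 to 18 flanking, 12 to 14 retinoic acid and 16 to 19 trithorax and polycomb calls. Same-numbered libraries were not paired: their deviations correlated at 0.0369, 0.0775 and 0.0054, and not every library correlated best with its own number. With the replicate number as a block, 21 Hox genes were lower, 0 higher, and 15612 genes were called. Hox genes with under 10 islet reads have wide counting intervals, and differences among them in islets were not detectable at this depth.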

Other observations

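Some marker lists not described above also moved between the groups. Mesothelium genes were lower in islets for 4 of 5 (Wt1, Upk3b, Lrrn4 and Muc16) and higher for Msln. Of 6 tested genes of splanchnic mesenchyme and spleen, 5 were lower (Barx1, Nkx3-2, Tlx1, Foxf1 and Tcf21), and Isl1, which endocrine cells also use, was higher. Nkx2-5 and Nkx3-2 had no islet read. Limma called 36.6% of all genes tested lower and 36.2% higher. Wt1, Upk3b, Lrrn4, Muc16, Barx1, Nkx3-2, Tlx1 and Tcf21 reached the minimum only through the embryonic libraries, so that their calls are not support for the rest.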
